A study of Mus musculus with 15 samples.

Results

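The genes followed here are early markers of primordial germ cells (PGCs) and cell-surface proteins used with them, measured by RNA-seq in the 4TF system: *Dppa3*, *Dnd1*, *Nanos3*, *Itgb3*, *Kit*, *Alpl*, *Cd38*, *Cxcr4*, *Ifitm3* and *Ifitm1*. They were taken by name, not by a measured value, and are 10 of the 55536 genes in the count table. Earlier results of these data were known when they were chosen. All 10 passed the filter on low counts and so belong to the 18090 genes tested. The samples were 15 mouse libraries in 5 groups with 3 replicates each. Naive ESCs were grown in 2i and LIF, and EpiLCs, the epiblast-like cells made from them, were taken after 48 h in activin A and bFGF. PGC-like cells (PGCLCs) were taken on days 2, 4 and 6 after 2 μg/ml doxycycline was added to EpiLCs, and are called D2PGCLC, D4PGCLC and D6PGCLC. All 5 groups carried transgenes of *Prdm1*, *Prdm14*, *Tfap2c* and *Nanog* under doxycycline control, and only the PGCLCs are described as induced. PGCLCs were sorted for eGFP from a *Stella* (*Dppa3*) reporter, and ESCs and EpiLCs are not described as sorted. The lines were derived as ESC clones, and the labels do not say whether replicates came from separate cultures, so p-values measure the spread between these samples only.

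PGCs are the founders of eggs and sperm. They arise from the epiblast, switch pluripotency and germline genes on together, erase much of their DNA methylation and migrate to the gonads. DPPA3 (STELLA) is a maternal and germline protein that shields chromatin from changes in DNA methylation, and DND1 and NANOS3 are RNA-binding proteins needed for PGC survival. The surface proteins serve to isolate and guide PGCs: integrin β3 (ITGB3) binds matrix proteins, KIT is the receptor of stem cell factor, CXCR4 is the receptor of the chemokine CXCL12, and ALPL is the tissue-nonspecific alkaline phosphatase by which PGCs have long been stained. IFITM3 (FRAGILIS) and IFITM1 are small membrane proteins of the interferon-induced family, and CD38 is an ectoenzyme that consumes NAD.

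Depth was 22555021 to 42725681 counts per sample. D6PGCLC replicate 1 had counts on 18061 genes, against 21103 to 24343 in the other samples, and results that change without it are given below. The 8 markers of naive ESCs had a summed level of 2606 to 2635 CPM (counts scaled to a common library size after TMM normalization) in ESC samples, 408 to 419.5 in EpiLC samples and 1248 to 1685 in PGCLC samples, and the 6 markers of EpiLCs a summed level of 2836 to 3058 CPM in EpiLCs and at most 220.1 elsewhere. The PGC list, of which 5 of 8 genes are among the 10 described here, summed to 310 to 369 CPM in ESCs and EpiLCs and 1199 to 1397 in PGCLCs. Of the other cell types, the 7 endoderm markers reached 9.58 to 18.0 CPM in D6PGCLCs, against 1.5 to 1.76 in D2PGCLCs and 4.52 to 4.76 in D4PGCLCs, with *Cer1* at 0 and *Foxa2* and *Afp* under 1 CPM. Of 5 endoderm markers tested, 3 rose from day 2 to day 6, namely *Gata6* (0.244 to 9.25 CPM, log2 fold change 5.22, adjusted p = 5.7e-07), *Sox17* (2.71, adjusted p = 0.000201) and *Gata4* (1.97, adjusted p = 8.02e-05). The mesoderm markers summed to 19.9 to 35.9 CPM in PGCLCs, with *T*, *Mixl1* and *Mesp1* under 1. Of 5 tested, *Hand1* rose from day 2 to day 6 (1.24 to 13.1 CPM, 3.40, adjusted p = 1.38e-07) and *Msx2* fell (-1.85, adjusted p = 0.00309). The neural markers summed to 20.8 to 29.0 CPM on days 2 and 4 and 40.5 to 50.4 on day 6. These sums were below the 76.1 to 88.0 CPM of ESCs and 113.6 to 149.2 of EpiLCs. From day 2 to day 6, 3 of 5 rose (*Sox1*, *Dll1* and *Nes*), where 10.9% of all genes tested rose and 2.75% fell. In PGCLCs, trophoblast markers summed to 6.71 to 12.0 CPM and blood and endothelial markers to 0.42 to 5.09. ESC samples summed to 5.4 to 6.53 CPM for endoderm and 37.0 to 39.8 for mesoderm markers. Trophoblast sums there were 44.7 to 47.2, and blood and endothelial sums 3.17 to 5.09. In the same order, EpiLC sums were 3.06 to 3.21, 8.95 to 9.24, 23.2 to 36.6 and 11.6 to 15.7. Of 5 endoderm markers tested, 2 were higher on day 6 than in ESCs, *Gata6* (4.83, adjusted p = 2.08e-07) and *Sox7* (1.68, adjusted p = 0.0173). Another 1, *Gata4*, was lower (-1.16, adjusted p = 0.00164). Of all genes tested, 15.8% were higher and 10.3% lower in that comparison. The part of these other cell types in the results below was not tested. Since these are bulk samples, fewer cells expressing a gene and less RNA per cell cannot be told apart.

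RefSeq promoters of the GRCm38.p6 build were found for 7 of the 10 genes, and not for *Dppa3*, *Dnd1* and *Itgb3*. *Kit* and *Alpl* had 2 windows each, of which only the first listed was searched. The 250 bases before the transcription start were searched on both strands for motifs of several factor families, whose activity in these cells was not measured. The AP-2 motif GCCNNNGGC, for the family of the transgene *Tfap2c*, was present in 3 of 7 windows (*Nanos3*, *Kit* and *Alpl*) and in 13.7% of all 32851 windows. The GC box GGGCGG was present in 5 of 7 and in 32.7% of all windows. The octamer ATGCAAAT (1.6% of all windows), the E-box CACGTG (6.0%) and an interferon-type motif (3.0%) were in none of the 7, *Ifitm1* and *Ifitm3* included. Promoters of *Kit*, *Alpl* and *Cxcr4* were GC-rich, with 70.8%, 68.4% and 61.2% GC against a median of 52.4%, and held 17, 20 and 19 CpGs against a median of 6. Those of *Nanos3*, *Ifitm3*, *Ifitm1* and *Cd38* held 3, 3, 4 and 1. All 250 bases of the *Cd38* window lie in annotated exons, so its values describe exon sequence. The windows of *Kit*, *Ifitm1* and *Ifitm3* hold 71, 48 and 26 exonic bases, which were included in the search and the counts. These 4 windows are shown because they hold AP-2 motifs or, for *Cxcr4*, 3 GC boxes without one. Capitals mark the AP-2 motif and the GC box, which overlap in *Nanos3* and *Alpl*. Bases in an annotated exon were left out, and all are written 5′ to 3′ on the strand of the gene.

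Nanos3 (chr8:84176553-84176802, minus strand): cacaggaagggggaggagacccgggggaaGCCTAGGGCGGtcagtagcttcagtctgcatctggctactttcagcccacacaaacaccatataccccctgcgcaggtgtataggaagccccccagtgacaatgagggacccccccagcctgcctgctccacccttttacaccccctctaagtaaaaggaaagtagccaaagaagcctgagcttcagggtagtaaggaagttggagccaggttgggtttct

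Kit (chr5:75574737-75574915, plus strand): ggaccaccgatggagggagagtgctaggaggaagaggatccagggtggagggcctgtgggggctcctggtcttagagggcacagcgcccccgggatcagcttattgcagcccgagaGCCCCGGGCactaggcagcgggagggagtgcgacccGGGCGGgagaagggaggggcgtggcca

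Alpl (chr4:137796385-137796634, minus strand): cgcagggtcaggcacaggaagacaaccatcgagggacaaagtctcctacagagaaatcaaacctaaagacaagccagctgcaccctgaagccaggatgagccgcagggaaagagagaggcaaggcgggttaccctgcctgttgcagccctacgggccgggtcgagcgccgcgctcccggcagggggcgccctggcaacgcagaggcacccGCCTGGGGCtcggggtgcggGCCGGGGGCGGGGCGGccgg

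Cxcr4 (chr1:128592300-128592549, minus strand): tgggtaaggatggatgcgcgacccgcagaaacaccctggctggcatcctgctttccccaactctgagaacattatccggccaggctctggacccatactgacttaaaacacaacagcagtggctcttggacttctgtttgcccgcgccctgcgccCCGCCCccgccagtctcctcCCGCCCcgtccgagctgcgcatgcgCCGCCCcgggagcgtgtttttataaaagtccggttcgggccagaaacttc

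The *Kit* AP-2 motif begins 134 bases before the RefSeq start of the window searched, that of *Nanos3* 221, and those of *Alpl* 40 and 20. The *Nanos3* window lies within the span of the annotated gene, which has a longer transcript, but in none of its exons. The *Ifitm1* and *Cd38* windows also lie within the spans of their genes. A match is a description of letters, and binding was not measured here.

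Of the 10 genes, 9 were higher in D2PGCLCs than in EpiLCs, none was called between days 2 and 4, and *Dnd1* and *Nanos3* fell from day 4 to day 6. Genes were called in edgeR's quasi-likelihood test at a Benjamini-Hochberg adjusted p under 0.05 over all genes tested together with an absolute log2 fold change above 1, and "rose" and "fell" are used for these. From ESCs to EpiLCs, 0 of 10 rose and 4 fell, where 14.4% of all genes tested rose and 11.9% fell. From EpiLCs to D2PGCLCs, 9 rose and 0 fell, where 11.0% of all genes rose and 14.4% fell. *Dppa3*, 1 of the 9, is the gene of the sorting reporter. Its calls between PGCLCs and EpiLCs or ESCs are therefore not independent of the sort. Any effect of the sort on the other members was not tested. The 10 genes were chosen as early PGC markers and surface proteins, with earlier results of these data known. The shares of all genes are therefore given for scale and not as a test. From day 2 to day 4, 0 of 10 were called in either direction, with 2.56% of all genes higher and 0.376% lower. From day 4 to day 6, 0 rose and 2 fell, where 2.29% of all genes rose and 0.785% fell. The median log2 fold change of the 10 genes in these steps was -0.56, 2.35, 0.08 and -0.42, beside -0.01, 0.00, 0.02 and -0.01 for all genes tested. Against ESCs, 6 of 10 were higher and 0 lower in D6PGCLCs, with 15.8% and 10.3% of all genes. Against EpiLCs, 8 were higher and 0 lower on day 6, with 15.9% and 12.0%. From day 2 to day 6, 0 rose and 2 fell, with 10.9% and 2.75%. These comparisons share groups and are not independent of each other.

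**Figure D1:**
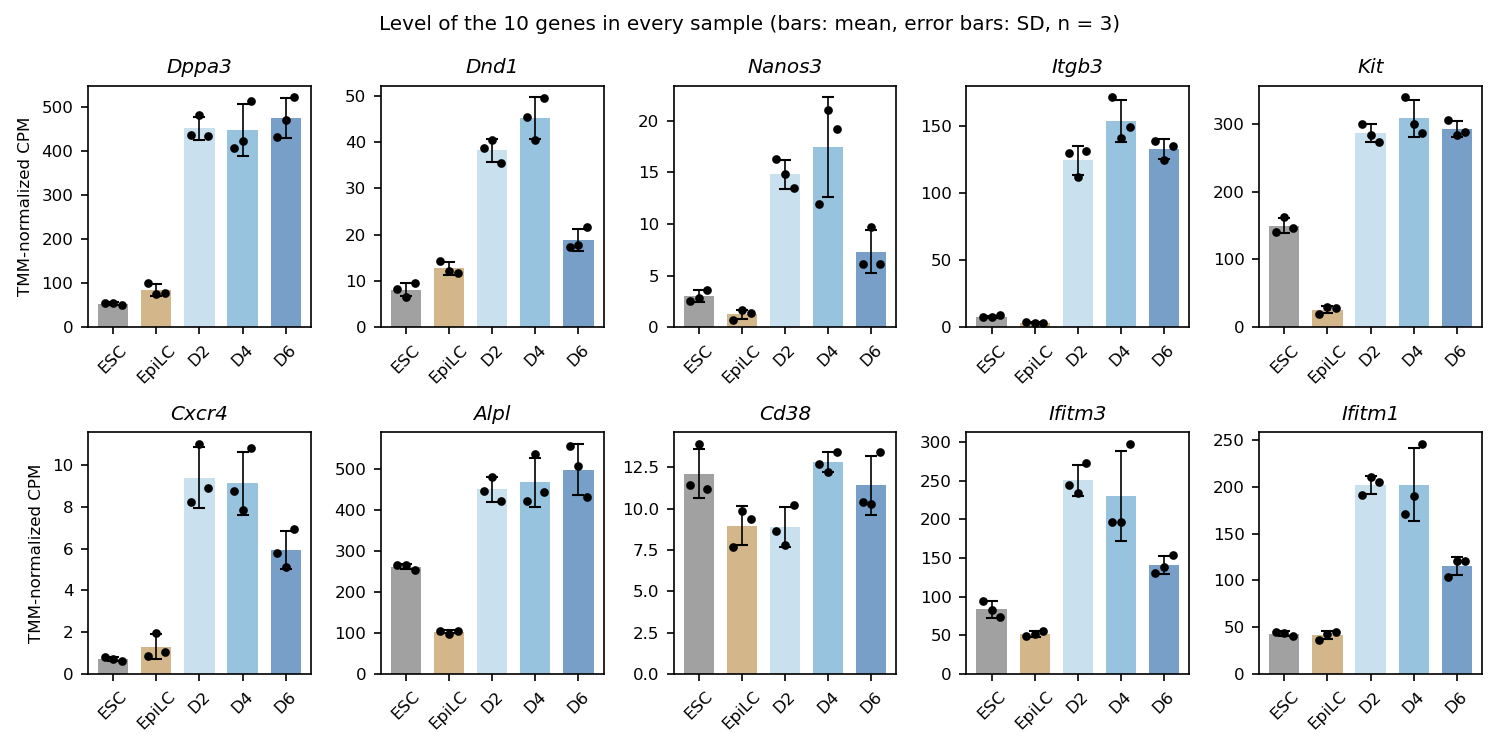
Each panel plots 1 gene, with the 5 groups on the x axis and TMM-normalized CPM from 0 on the y axis. Points are samples, bars the mean and error bars the SD (n = 3). In every panel but that of *Cd38*, the 3 D2PGCLC samples stand above all ESC and EpiLC samples. The share of all genes tested with such a separation was not computed, so it is a description only.

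*Dppa3* (ENSMUSG00000046323, chromosome 6 from 122626410 to 122630272) was among the most abundant transcripts of PGCLCs. Its level was 55.5, 55.7 and 50.5 CPM in the ESC samples, 101, 75.8 and 79.0 in EpiLCs, 438, 482 and 436 in D2PGCLCs, 406, 424 and 515 in D4PGCLCs and 432, 472 and 522 in D6PGCLCs. All PGCLC samples lay far above all ESC and EpiLC samples, and the days overlapped. *Dppa3* rose from EpiLCs to day 2 by a log2 fold change of 2.41 (SE 0.11, adjusted p = 6.5e-12), and the steps to day 4 (-0.01, SE 0.11) and day 6 (0.08, SE 0.11) were within the spread of the replicates. Since the sort selected PGCLCs by a *Dppa3* reporter and EpiLCs are not described as sorted, its difference from EpiLCs is not independent of that selection. Whether the reporter transcript adds to the *Dppa3* counts was not tested. Of the 50-base stretches of *Dppa3* transcripts, 16.5% occur in other genes, mainly the pseudogene *Dppa3-ps*, which itself had 354 counts over the 15 samples. *Dppa3* was already higher in EpiLCs than in ESCs by 0.66 (SE 0.11, adjusted p = 6.36e-05), under the cutoff of 1.

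The next list held genes of the *Dppa3* locus, partners of the protein, and *Dppa2*, *Dppa4* and *Dppa5a*, included for their shared name. Of these, 1 of 10 rose and 1 fell from EpiLCs to D2PGCLCs. These counts are near the 11.0% and 14.4% of all genes. *Tet2*, an enzyme that oxidizes methylated cytosine, rose by 1.82 (adjusted p = 1.1e-07), from a mean of 28.7 to 101 CPM, after a fall of 2.66 from 182 CPM in ESCs (adjusted p = 7.16e-10). *Tet3* fell by 1.06 (adjusted p = 2.63e-06). *Uhrf1*, the cofactor that brings the maintenance methyltransferase to DNA and a partner of DPPA3, had 744 CPM in ESCs, 530 in EpiLCs and 281, 245 and 279 on the 3 days of PGCLCs. Against ESCs, day 6 differed by -1.41 on the log2 scale (adjusted p = 2e-09). The step from EpiLCs to day 2 was -0.92 (adjusted p = 5.1e-07), which is under the cutoff. *Gdf3* and *Nanog*, neighbours of *Dppa3*, differed by 0.69 and 0.63 at that step, and *Nanog* counts also include its transgene.

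*Dnd1* (ENSMUSG00000044595) and *Nanos3* (ENSMUSG00000056155, chromosome 8 from 84173731 to 84185217) rose by day 2 and were down again on day 6. *Dnd1* had 8.21, 6.66 and 9.58 CPM in ESCs, 14.4, 12.1 and 11.8 in EpiLCs, 38.7, 40.5 and 35.5 on day 2, 45.3, 40.4 and 49.4 on day 4 and 17.3, 17.7 and 21.6 on day 6. The 3 day 6 samples lay below every day 2 and day 4 sample and above every EpiLC sample. *Dnd1* rose by 1.58 from EpiLCs to day 2 (SE 0.14, adjusted p = 1.47e-08) and fell by 1.26 from day 4 to day 6 (SE 0.13, adjusted p = 1.44e-05).

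*Nanos3* was at lower levels, with 2.52, 2.85 and 3.65 CPM in ESCs and 0.765, 1.64 and 1.36 in EpiLCs. It had 16.3, 14.8 and 13.5 CPM on day 2, 11.9, 21 and 19.2 on day 4 and 6.10, 9.75 and 6.15 on day 6. Its rise to day 2 was 3.55 on the log2 scale (SE 0.28, adjusted p = 5.84e-09), and its fall from day 4 to day 6 was -1.24 (SE 0.24, adjusted p = 0.00246). *Nanos3* also fell from ESCs to EpiLCs, by 1.25 (SE 0.30, adjusted p = 0.00162). Without EpiLC replicate 1 that change was -0.99 and was no longer called. Day 6 remained above ESCs for both genes, by 1.20 for *Dnd1* (adjusted p = 7.69e-07) and 1.29 for *Nanos3* (adjusted p = 0.000354).

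From day 2 to day 6 the fitted changes of *Dnd1* (-1.02, adjusted p = 9.86e-06) and *Nanos3* (-1.01, adjusted p = 0.00262) were just past the cutoff. The *Dnd1* call was lost without D2PGCLC replicate 2 (-0.98), D6PGCLC replicate 1 (-0.96) or D6PGCLC replicate 2 (-0.98). The *Nanos3* call was lost without D2PGCLC replicate 1 (-0.95), D6PGCLC replicate 1 (-0.89) or D6PGCLC replicate 3 (-0.90). *Dnd1* overlaps *Wdr55*, on the opposite strand, over 140 exonic bases, and the counting setting for strand is not given in the sources used here.

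Of 7 other RNA regulators tested, 1 rose and 0 fell from EpiLCs to day 2, from day 2 to day 4 and from day 4 to day 6. In each step it was *Dazl*, a translational activator of germ cells. Of all genes, 11.0% rose and 14.4% fell in the first step, so 1 of 7 is near that share. The shares were 2.56% and 0.376% in the second step and 2.29% and 0.785% in the third. *Dazl* had means of 6.37 CPM in EpiLCs and 39.1, 186 and 428 on days 2, 4 and 6, with log2 fold changes of 2.62, 2.25 and 1.20 (adjusted p = 2.21e-09, 9.17e-07 and 0.000169). *Ddx4*, an RNA helicase of the germline, had 19.4 CPM in EpiLCs and 30.6, 46.3 and 57.6 on the 3 days. Its rise was called from ESCs to EpiLCs (1.91, adjusted p = 7.88e-10) and between EpiLCs and day 6 (1.57, adjusted p = 3.16e-09). *Nanos1*, a relative of *Nanos3*, stayed between 3.20 and 7.32 CPM on average, and *Nanos2* had at most 3 counts in a sample. *Cnot1*, a deadenylase scaffold with which NANOS proteins work, had group means of 671 to 985 CPM and was called in none of the 7 comparisons. The same held for *Cnot3* and *Nanos1*.

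*Itgb3* (ENSMUSG00000020689, chromosome 11 from 104608000 to 104670476) had the steepest rise of the 10 genes. It had 7.55, 7.76 and 8.98 CPM in ESCs, 3.86, 3.45 and 3.45 in EpiLCs, 130.1, 112 and 132 on day 2, 172, 141 and 149 on day 4 and 139, 125 and 135 on day 6. The lowest PGCLC sample was above the highest ESC sample by an order of magnitude. The step from EpiLCs to day 2 was 34.8-fold (log2 5.12, SE 0.12, adjusted p = 4.3e-16), after a fall of 1.18 from ESCs to EpiLCs (SE 0.12, adjusted p = 1.41e-07). Day 4 was higher than day 2 by 0.30 (SE 0.09, adjusted p = 0.0353), under the cutoff, and the day 6 change of -0.21 missed the threshold (adjusted p = 0.132).

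The α chains that pair with integrin β3 did not move to that extent. *Itgav* had 66.1 CPM in ESCs, 28.8 in EpiLCs and 54.4, 61.1 and 77.1 on the 3 days, a step of 0.92 to day 2 (adjusted p = 4.89e-07) and of 1.42 by day 6 against EpiLCs (adjusted p = 1.38e-09). *Itga2b*, the platelet α chain, had means of 0.889 to 2.06 CPM. Per kilobase of exon, *Itgb3* had 0.608 CPM in EpiLCs and 21.1 to 26.1 in PGCLCs. Beside 11.0% and 14.4% of all genes, 1 of 8 tested partners and ligands rose from EpiLCs to day 2 and 0 fell. It was *Spp1* (osteopontin), with a log2 fold change of 1.02 that is at the cutoff (adjusted p = 2.68e-05), and its PGCLC means of 104 to 135 CPM stayed below 340.2 CPM in ESCs. *Fn1* (fibronectin) ranged from 690.4 CPM in EpiLCs to 1363 in ESCs.

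*Kit* (ENSMUSG00000005672, chromosome 5 from 75574916 to 75656722) dipped in EpiLCs and then exceeded its ESC level. It had 141, 163 and 146 CPM in ESCs, 20.1, 29.5 and 28.0 in EpiLCs, 299.9, 283 and 274 on day 2, 338, 299 and 286 on day 4 and 305, 283 and 288 on day 6. ESC, EpiLC and PGCLC samples did not overlap, whereas the PGCLC days did. *Kit* fell by 2.53 from ESCs to EpiLCs (SE 0.12, adjusted p = 2.4e-12) and rose by 3.46 to day 2 (SE 0.12, adjusted p = 1.13e-13). Day 4 was called higher than ESCs (1.04, SE 0.11, adjusted p = 2.15e-07). Day 6 was higher than ESCs by 0.96 (SE 0.11, adjusted p = 5.48e-07), just under the cutoff, and by 1.02 without ESC replicate 2. On day 2 the difference from ESCs was 0.93, also under the cutoff. The steps to day 4 and from day 4 to day 6 were 0.11 and -0.08 (SE 0.11 each).

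The ligand of KIT ran the other way. *Kitl* (stem cell factor) had 2.37 CPM in ESCs, 12.9 in EpiLCs and 5.56, 3.42 and 3.97 on days 2, 4 and 6. It rose by 2.44 into EpiLCs (adjusted p = 8.68e-09) and fell by 1.21 to day 2 (adjusted p = 2.65e-05). Of 10 other genes of KIT signalling tested, *Kitl* included, 1 rose and 2 fell from EpiLCs to day 2. These counts are near the 11.0% and 14.4% of all genes. *Pik3r1*, a regulatory subunit of PI3-kinase, fell by 1.07 (adjusted p = 1.36e-06). *Ptpn6*, a phosphatase that restrains KIT, was called higher by 1.45 (adjusted p = 0.00484), but its day 2 samples ran from 47.3 to 133 CPM. The adaptors *Grb2* and *Sos1* were called in none of the 7 comparisons.

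*Cxcr4* (ENSMUSG00000045382, chromosome 1 from 128588199 to 128592293) had the lowest CPM of the 10 genes in D6PGCLCs. It had 0.803, 0.701 and 0.637 CPM in ESCs, 0.842, 1.97 and 1.06 in EpiLCs, 8.21, 11.0 and 8.91 on day 2, 8.76, 7.83 and 10.8 on day 4 and 5.78, 5.13 and 6.92 on day 6. Day 6 samples lay below all samples of days 2 and 4 and above all EpiLC samples. *Cxcr4* rose by 2.84 from EpiLCs to day 2 (SE 0.26, adjusted p = 4.02e-08) and was 3.05 above ESCs on day 6 (adjusted p = 4.38e-08). The change from day 4 to day 6 was -0.62 (SE 0.23) and missed the threshold (adjusted p = 0.0823). From day 2 to day 6 it was -0.66, with an adjusted p = 0.0301 and under the cutoff. From ESCs to EpiLCs the change was 0.87 (SE 0.31, adjusted p = 0.0244), and it passed the cutoff without EpiLC replicate 1 (1.11) or EpiLC replicate 3 (1.01).

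The chemokine and its second receptor were highest in EpiLCs. *Cxcl12* had 0.247 CPM in ESCs, 41.8 in EpiLCs and 1.36, 0.694 and 0.449 on days 2, 4 and 6. It rose by 7.43 into EpiLCs (adjusted p = 1.66e-07) and fell by 4.99 to day 2 (adjusted p = 1.67e-06), and single PGCLC samples ranged from 0.0286 to 3.12 CPM. *Ackr3* (CXCR7), which binds and removes CXCL12, had 5.09, 15.0, 3.90, 1.72 and 1.35 CPM in the 5 groups and fell by 1.95 from EpiLCs to day 2 (adjusted p = 0.000295). *Rgs16*, a brake on G protein signals, fell by 1.39 at that step (adjusted p = 0.00213). Of 6 other genes of CXCR4 signalling tested, these 3 fell and 0 rose from EpiLCs to day 2, while *Gnai2*, *Arrb2* and *Grk2* were called in none of the 7 comparisons. Of all genes, 14.4% fell and 11.0% rose from EpiLCs to day 2.

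**Figure D2:**
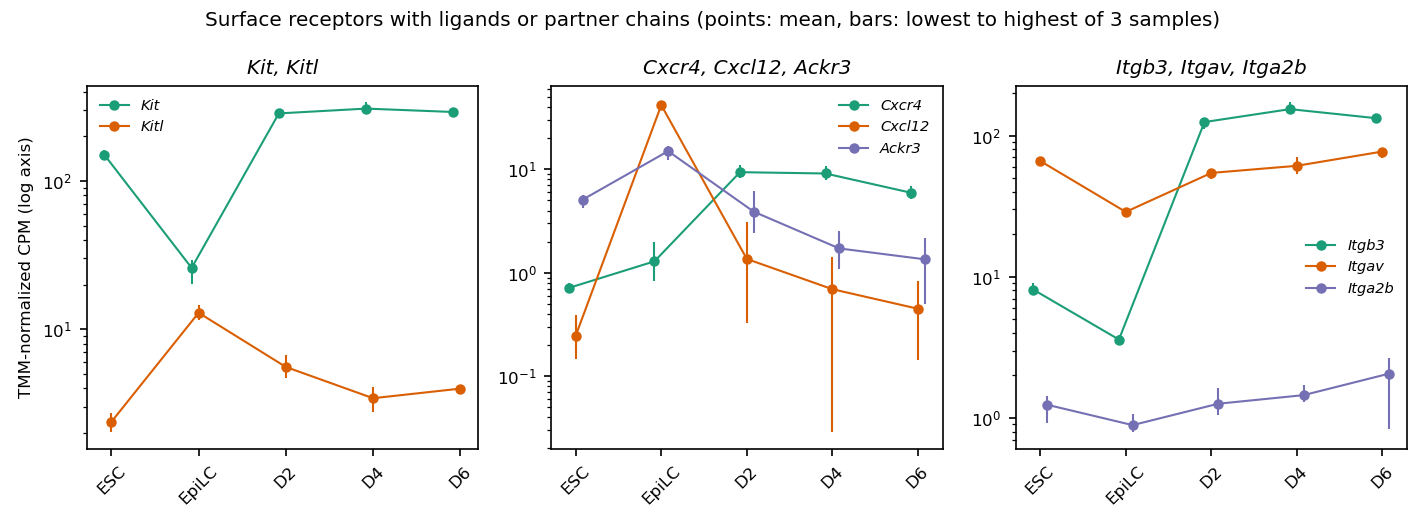
Mean TMM-normalized CPM, on a log axis, of 3 surface receptors and of their ligands or partner chains is plotted over the 5 groups, with bars from the lowest to the highest of 3 samples. *Kitl*, *Cxcl12* and *Ackr3* peak in EpiLCs, at 12.9, 41.8 and 15.0 CPM, where *Kit* and *Itgb3* are lowest.

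*Alpl* (ENSMUSG00000028766, chromosome 4 from 137741733 to 137796384) followed the course of *Kit*. It had 266, 266 and 255 CPM in ESCs, 105, 98.4 and 106 in EpiLCs, 448, 482 and 423 on day 2, 423, 537 and 444 on day 4 and 558, 507 and 434 on day 6. All PGCLC samples were above all ESC samples, which were above all EpiLC samples. *Alpl* fell by 1.34 into EpiLCs (SE 0.10, adjusted p = 1.62e-09) and rose by 2.13 to day 2 (SE 0.10, adjusted p = 6.5e-12). Its excess over ESCs on day 6 was 0.93 (SE 0.10, adjusted p = 2.18e-07), under the cutoff, and 1.04 without D6PGCLC replicate 3. The other alkaline phosphatases were nearly silent. *Alpi* had no count in any sample, *Akp3* was at most 0.219 CPM and *Alppl2* at most 0.617.

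*Cd38* (ENSMUSG00000029084, chromosome 5 from 43868553 to 43912375) did not take part in the rise. It had 11.4, 13.9 and 11.2 CPM in ESCs, 7.65, 9.87 and 9.39 in EpiLCs, 8.67, 7.81 and 10.2 on day 2, 12.7, 12.2 and 13.4 on day 4 and 10.4, 10.3 and 13.4 on day 6. The change from EpiLCs to day 2 was -0.01 with an SE of 0.16 (adjusted p = 0.953), and the sign turned without a filter on low counts or with single samples left out (-0.12 to 0.08). *Cd38* was lower in EpiLCs than in ESCs by 0.43 (adjusted p = 0.026) and higher on day 4 than on day 2 by 0.52 (adjusted p = 0.034), both under the cutoff. Its group means spanned 8.89 to 12.8 CPM.

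Of the other ectoenzymes of the CD38 list, *Bst1* and *Nt5e* fell from ESCs to EpiLCs and again to day 2. *Bst1*, the paralog of *Cd38*, had 4.62 CPM in ESCs and at most 0.459 CPM on average in the other groups, and *Nt5e* (CD73) went from 20.9 CPM in ESCs to 0.807 on day 6 (log2 fold change -4.68, adjusted p = 4.25e-11). *Pecam1* (CD31), the ligand of CD38, had 119.9 CPM in ESCs, 179 in EpiLCs and 356, 426 and 376 on the 3 days. It was higher on day 6 than in ESCs by 1.65 (adjusted p = 4.05e-12), and its step of 0.99 from EpiLCs to day 2 (adjusted p = 2.77e-09) was just under the cutoff. *Enpp1*, another nucleotide-cleaving ectoenzyme, had 0.473 CPM in ESCs and 3.26 on day 6 (2.77, adjusted p = 9.38e-07).

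SSEA1, the carbohydrate antigen commonly paired with integrin β3 to sort PGCLCs, is not a transcript, so a list of 4 glycan enzymes drawn up for its synthesis was examined. From EpiLCs to day 2, 3 rose and 1 fell, where 11.0% of all genes rose and 14.4% fell. *Chst10*, 1 of the 3 that rose, is the sulfotransferase of the HNK-1 epitope and does not make SSEA1. *Fut9*, the fucosyltransferase that makes the epitope in stem cells, rose by 1.22 (20.4 to 47.7 CPM, adjusted p = 1.06e-06), *B4galt1* by 1.68 (29.9 to 95.9 CPM, adjusted p = 4.7e-11) and *Chst10* by 2.30 (3.64 to 17.9 CPM, adjusted p = 8.27e-09). *Fut4* fell by 1.38 (1.65 to 0.636 CPM, adjusted p = 0.0327). *Fut9* in D6PGCLCs (32.9 CPM) was below ESCs (67.5 CPM), with a log2 difference of -1.04 (adjusted p = 6.1e-06).

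*Ifitm3* (ENSMUSG00000025492, chromosome 7 from 141009586 to 141010770) and *Ifitm1* (ENSMUSG00000025491, chromosome 7 from 140967221 to 140969825) lie in 1 cluster, and both rose from EpiLCs to day 2. *Ifitm3* had 94.5, 82.2 and 73.3 CPM in ESCs, 48.4, 51.8 and 55.2 in EpiLCs, 244, 234 and 273 on day 2, 197, 197 and 297 on day 4 and 130.2, 138 and 153 on day 6. *Ifitm1* had 44.6, 44.2 and 40.2 CPM in ESCs, 36.5, 42.5 and 45.3 in EpiLCs, 191, 209.9 and 205 on day 2, 171, 190.2 and 246 on day 4 and 104, 120.3 and 121 on day 6. In both, day 6 samples lay between the ESC samples and those of days 2 and 4, with no overlap.

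From ESCs to EpiLCs, *Ifitm3* changed by -0.69 (adjusted p = 0.000314), under the cutoff, and *Ifitm1* by -0.05 (adjusted p = 0.731). *Ifitm3* rose from EpiLCs to day 2 by 2.27 (SE 0.14, adjusted p = 1.58e-10) and *Ifitm1* by 2.29 (SE 0.12, adjusted p = 1.75e-11). From day 4 to day 6 they changed by -0.71 (SE 0.13, adjusted p = 0.00191) and -0.81 (SE 0.11, adjusted p = 0.000165), past the p threshold and under the cutoff. Against ESCs, day 6 was higher by 1.42 for *Ifitm1* (adjusted p = 7.8e-09) and by 0.75 for *Ifitm3* (adjusted p = 0.000108), again under the cutoff for the latter. *Ifitm3* was called higher than in ESCs on day 2 (1.59, adjusted p = 1.44e-08) and day 4 (1.47, adjusted p = 4.07e-08). *Ifitm3* had 193 ± 16.1 counts per 100 counts of *Ifitm1* in ESCs (SD, n = 3), and 125 ± 6.04 in EpiLCs, 124 ± 11.4 on day 2, 113 ± 8.91 on day 4 and 122 ± 6.40 on day 6. Every ESC sample was above every other sample in this ratio. Of the 50-base stretches of *Ifitm3*, 10.0% occur in other genes, and 5.02% of those of *Ifitm1*, with 15 stretches shared between them, so their counts are to that extent uncertain.

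Other members of the family were expressed at far lower levels. *Ifitm2*, in the same cluster, had 5.73 CPM in ESCs, 3.70 in EpiLCs and 13.5, 14.4 and 11.3 on the 3 days, and rose by 1.87 from EpiLCs to day 2 (adjusted p = 2.41e-06). *Ifitm5*, *Ifitm6*, *Ifitm7* and *Ifitm10* stayed under 1 CPM in every sample. The interferon-stimulated genes on the list had another course. Of 9 tested, 1 rose and 4 fell from EpiLCs to day 2, beside 11.0% and 14.4% of all genes. The 9 had a median log2 fold change of -0.98 beside 0.00 for all genes. Among those that fell, *Oasl2*, an antiviral sensor, went from 31.9 to 9.42 CPM (-1.77, adjusted p = 2.27e-06). The 1 that rose, *Irf7*, was under 1 CPM on average in both groups. From day 2 to day 6, 4 of 9 rose and 0 fell (median 1.15, beside 0.00 for all genes), and between ESCs and day 6, 5 were higher and 1 lower (median 2.71, beside -0.00). Of all genes, 10.9% rose and 2.75% fell from day 2 to day 6. Against ESCs, 15.8% were higher and 10.3% lower on day 6.

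**Figure D3:**
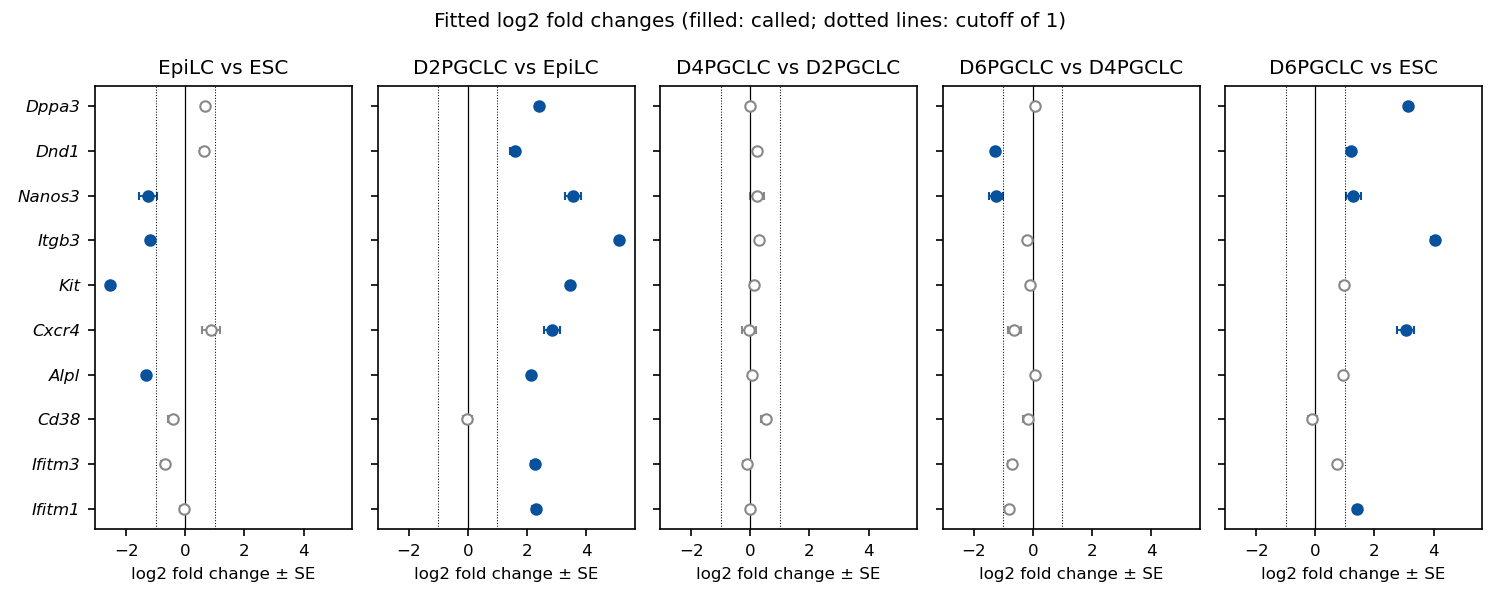
Fitted log2 fold changes with standard errors (x axis) of the 10 genes (rows) are shown for 5 comparisons, with filled points for called genes and dotted lines at the cutoff of 1. For D2PGCLC vs EpiLC, 9 filled points lie to the right, none are filled for D4PGCLC vs D2PGCLC, and *Dnd1* and *Nanos3* are filled to the left for D6PGCLC vs D4PGCLC.

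Day 6 levels relative to day 2 ranged widely among the 9 genes that rose. As a share of the day 2 mean, day 6 samples were at 95.6% to 116% for *Dppa3*, 100.1% to 111% for *Itgb3*, 99.1% to 107% for *Kit* and 96.2% to 124% for *Alpl*. They were at 45.3% to 56.5% for *Dnd1*, 41.2% to 65.9% for *Nanos3*, 52.0% to 61.3% for *Ifitm3*, 51.4% to 60.0% for *Ifitm1* and 54.6% to 73.7% for *Cxcr4*. No sample of the second set on day 6 reached a sample of the first. All PGCLC samples were sorted by the *Dppa3* reporter, so the steady level of *Dppa3* is not independent of the sort, and ratios to *Dppa3* share that limit. Within a sample, a ratio of counts does not depend on the normalization. *Dnd1* had 8.46 ± 0.351 counts per 100 counts of *Dppa3* on day 2, 10.1 ± 0.908 on day 4 and 3.96 ± 0.198 on day 6 (SD, n = 3), and *Nanos3* had 3.29 ± 0.367, 3.87 ± 1.03 and 1.55 ± 0.461. *Ifitm1* had 44.8 ± 1.95, 44.9 ± 2.80 and 24.2 ± 1.15, whereas *Itgb3* had 27.8 ± 3.90, 34.9 ± 6.73 and 28.2 ± 3.47. The day 6 samples of the first 3 ratios overlapped no sample of days 2 or 4, and those of *Itgb3* overlapped both. These 2 sets were formed after the values were seen, and the difference between the genes is a description without a test. The summed endoderm and neural markers, and *Hand1* among the mesoderm markers, were higher on day 6 than on days 2 and 4. The neural sum on day 6 was below that of all ESC and EpiLC samples. The part of these markers in the day 6 levels of the 10 genes was not tested.

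**Figure D4:**
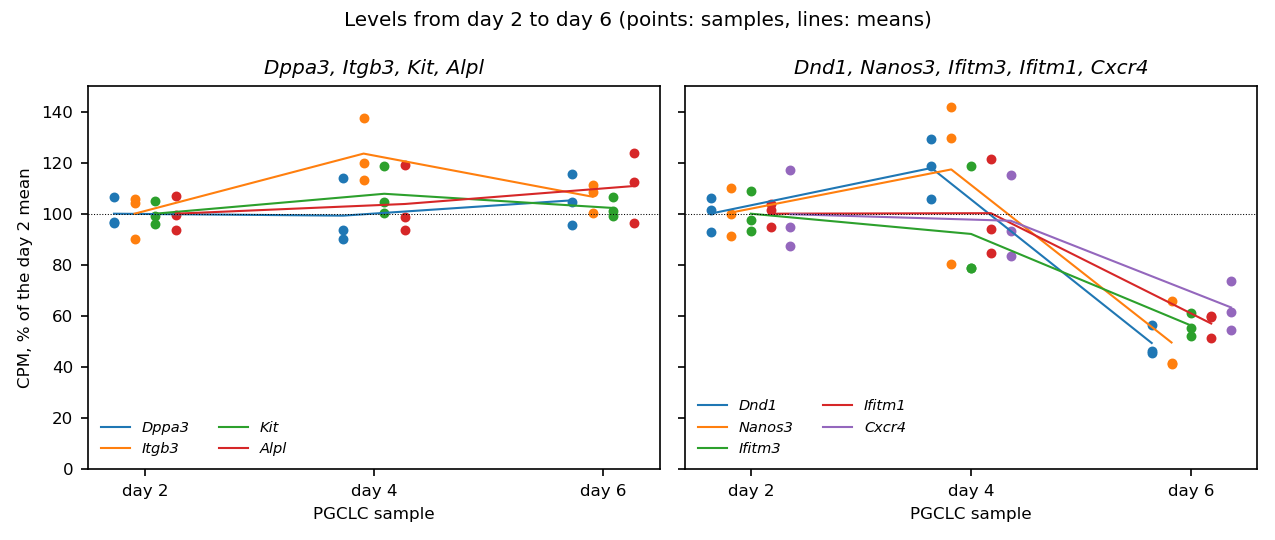
The level of each gene in every PGCLC sample is plotted as a percentage of its day 2 mean (y axis, from 0) by day (x axis), with points for samples and lines through the means. *Dppa3*, *Itgb3*, *Kit* and *Alpl* stay near 100% on day 6, and the 5 genes on the right lie between 41.2% and 73.7%.

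Levels of the transgene factors are given beside these courses. *Tfap2c*, whose product is AP-2γ, had 39.6 CPM in ESCs, 56.1 in EpiLCs and 232, 202 and 162 on days 2, 4 and 6, and it was the 1 of 4 transgene factors called higher from EpiLCs to day 2 (2.05, adjusted p = 2.53e-13). Of all genes, 11.0% rose and 14.4% fell at that step. *Prdm1* had 71.6 CPM in EpiLCs and 106, 94.5 and 59.6 on the 3 days, and *Prdm14* 96.4, 93.4, 90.2 and 71.6. Both rose from ESCs to EpiLCs, *Prdm1* by 2.72 (adjusted p = 1.13e-12) and *Prdm14* by 1.11 (adjusted p = 7.14e-08), where 14.4% of all genes rose and 11.9% fell. Transgene and endogenous transcripts are counted together. From day 4 to day 6 none of the 4 was called, with changes of -0.32 for *Tfap2c* (adjusted p = 0.00814), -0.67 for *Prdm1* (adjusted p = 0.000578), -0.33 for *Prdm14* (adjusted p = 0.044) and -0.06 for *Nanog* (adjusted p = 0.754). Of all genes, 2.29% rose and 0.785% fell from day 4 to day 6, so few calls would be found among any 4 genes.

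Ranked by CPM per kilobase of exon among the 18090 genes tested, *Dppa3* was gene 798 in ESCs, 487 in EpiLCs and 58, 57 and 44 on the 3 days. In D6PGCLCs it was followed, of the 10 genes, by *Ifitm3* (rank 152), *Alpl* (281), *Ifitm1* (345), *Kit* (1495), *Itgb3* (2321), *Nanos3* (5629), *Dnd1* (5685), *Cxcr4* (8580) and *Cd38* (8956). *Itgb3* had been at rank 12710 in EpiLCs. In ESCs *Ifitm3* (rank 327), *Alpl* (732) and *Dppa3* led, so these 3 transcripts were also abundant before germ cell induction. Within most genes, the order of the groups had adjacent days of PGCLCs that did not differ beyond their spread. For *Dnd1*, *Nanos3* and *Ifitm1*, day 4 and day 2 were such neighbours, and day 6, EpiLCs or ESCs each differed from the next group in order, except ESCs and EpiLCs for *Ifitm1* (adjusted p = 0.731). For *Cd38*, none of the 4 neighbouring pairs differed.

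Over the 15 samples, log2(CPM + 1) of *Kit* and *Alpl* had a Pearson correlation of 0.98 (Spearman 0.807), *Cxcr4* and *Ifitm1* 0.975 (0.932) and *Ifitm1* and *Ifitm3* 0.966 (0.957). The highest Pearson correlation of *Cd38* with another of the 10 was 0.436, with *Kit*. Among 11381 other genes with a mean of at least 100 counts, those most like *Dppa3* were *Cotl1* (0.992), *Npnt* (0.991) and *Map7* (0.990), those most like *Kit* were *Slc15a1* (0.991), *Gna13* and *Zbtb43* (0.990 each), and those most like *Itgb3* were *Mbtps1* (0.992), *Insyn1* (0.991) and *Phf13* (0.990). *Cxcr4* was most like *Nup62cl* (0.992), *Ctbs* (0.987) and *Arhgap42* (0.986), *Nanos3* like *Coro1b* (0.984), *Porcn* (0.983) and *Fbxo27* (0.972), and *Dnd1* like *Bcl7c* (0.974), *Fam222a* (0.966) and *Bckdha* (0.964). For *Alpl* they were *Erlin1*, *Arih2* (0.989 each) and *H2afy* (0.988), for *Ifitm1* they were *Limk2* (0.989), *Ccnd3* (0.985) and *Habp4* (0.983), and for *Ifitm3* they were *Ist1* (0.980), *Sgta* (0.977) and *2310061I04Rik* (0.975). *Cd38* reached only 0.851, with *Fam129a*, followed by *Phka1* (0.845) and *Siah2* (0.827). These values describe samples that fall into few groups, and ranking by Spearman's correlation kept at most 1 of the 3 genes named for each member.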

How the data were processed

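RNA was purified with TRIzol, libraries were made with the NEBNext Ultra II Directional kit, and reads were handled with Trim Galore, FastQC and STAR on mm10, per the submitters' processing notes. The counting tool and its strand setting are not given in the sources used here. The authors deposited raw counts of 55536 genes in 15 samples (22555021 to 42725681 counts each). All 55536 identifiers matched GENCODE M21 (GRCm38), the source of names, coordinates and exon lengths. Here, counts were fitted with edgeR 4.0.16 (R 4.3.3): filterByExpr with a minimum count of 10, TMM, and 1 quasi-likelihood model over the 15 samples, with a coefficient for each group. Adjusted p-values cover 18090 genes, and standard errors were derived from the log2 fold change and its F statistic. Simulated counts were used to test the code. Alternatives were DESeq2 1.42.0, its size factors in edgeR, no filter, no fold-change cutoff, the 2 groups alone, a replicate block and leaving out each sample. The genes named are the 10 members, genes of 11 pathway and 8 marker lists, and for each member the 3 genes with the highest correlation. Members and lists were chosen with earlier results of these data known. Promoter sequences are from RefSeq (GRCm38.p6). Some listed genes are counted with their list but not reported here by name.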

Additional observations from a re-analysis of the deposited data

How the results depend on the processing

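Of 1400 fold changes of the 10 genes recomputed under other settings, 1369 kept their sign and their side of the threshold. Another 7 lost a call, 4 gained one and 20 changed sign, and DESeq2's size factors moved none of 50 group levels by more than the replicate SD. DESeq2, its size factors, no filter on low counts and the 2 groups alone kept each count of called members within 1.5 times the main count. Without a fold-change cutoff, the number of members called became 9 (EpiLC vs ESC), 2 (D4PGCLC vs D2PGCLC), 4 (D6PGCLC vs D4PGCLC) and 5 (D6PGCLC vs D2PGCLC). It also grew in D6PGCLC vs ESC, where *Kit*, *Alpl* and *Ifitm3* were added, and in D6PGCLC vs EpiLC, where *Dnd1* was added. Leaving out 1 sample gave 0 to 2 calls for D6PGCLC vs D2PGCLC. Changes of sign all concerned values near 0. For *Cd38* in D2PGCLC vs EpiLC the value was 0.01 without a filter and -0.12 to 0.08 with 1 sample left out. For *Ifitm1* in D4PGCLC vs D2PGCLC it was -0.01 with DESeq2, with its size factors and with the replicate block, -0.02 with the 2 groups alone and -0.16 to 0.11 with 1 sample left out. The leave-one-out range also crossed 0 for *Ifitm1* in EpiLC vs ESC (-0.11 to 0.04), for *Dppa3* (-0.12 to 0.06), *Alpl* (-0.06 to 0.12) and *Cxcr4* (-0.18 to 0.09) in D4PGCLC vs D2PGCLC, and touched it for *Cd38* in D6PGCLC vs ESC (-0.22 to 0.00) and *Kit* in D6PGCLC vs D2PGCLC (-0.00 to 0.06). The cause of these changes was not tested. Whether the replicate numbers pair the samples is not stated. Deviations from group means had a mean correlation of 0.0703 for same-numbered samples (-0.1836 to 0.3581). For other pairs of samples it was -0.0352 (-0.4006 to 0.2592). Deviations within a group sum to 0, so the 2 means are tied to each other and cannot decide the question. Adding the replicate block gave 4, 9, 0, 2, 6, 8 and 2 called members in EpiLC vs ESC, D2PGCLC vs EpiLC, D4PGCLC vs D2PGCLC, D6PGCLC vs D4PGCLC, D6PGCLC vs ESC, D6PGCLC vs EpiLC and D6PGCLC vs D2PGCLC, as without it. Depth limited *Cxcr4* in ESCs (16 to 22 counts per sample) and *Nanos3* in EpiLCs (20 to 50) most.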
